A study of Mus musculus with 18 samples.

Results

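The 8 genes Sesn1, Sesn2, Sesn3, Ddit4, Ddit4l, Tsc1, Tsc2 and Prkab1, which encode brakes on the growth kinase complex mTORC1, were followed in a mouse cell line whose p53 activity could be switched on. They were chosen by name, as every probe set annotated with one of these symbols, and were read by 18 of the 45037 probe sets tested, or 8 of the 18193 genes that had a probe set of their own. RNA from the line called TKO, labelled as telomere dysfunctional, was measured on 18 Affymetrix mouse arrays. The title of the study concerns ZNF365, fragile sites and telomeres. Some of the cells expressed p53ER, and the other cells were uninfected. p53ER is a fusion of p53 to an estrogen receptor, designed to stay inactive until 4-hydroxytamoxifen (4-OHT) binds. There were 6 groups of 3 arrays each: p53ER cells at 0 h, p53ER cells after 4 h with vehicle, p53ER cells after 4 h with 100 nM 4-OHT, and uninfected cells in the same 3 conditions. All cells shared the TKO background and grew in medium with serum. No group of cells infected with an empty vector is named in the labels, so that an effect of the fusion and one of infection cannot be told apart.

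mTORC1 drives protein synthesis and cell growth when amino acids, growth factors and energy are plentiful, and it is switched on at the lysosome by the small GTPase Rheb. The products of Tsc1 and Tsc2 form the complex that turns Rheb off. The sestrins bind GATOR2 and so damp the amino acid signal, the products of Ddit4 (REDD1) and Ddit4l (REDD2) act through the Tsc1-Tsc2 complex, and Prkab1 encodes a beta subunit of AMPK, the energy sensor that restrains mTORC1. Several of these genes, Sesn1, Sesn2 and Ddit4 among them, are known as p53 targets after DNA damage, and Ddit4 and Sesn2 are also induced by other stresses.

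Promoter sequence was searched for the p53 half-site because it bears on how the genes could respond to the fusion, and for ACGTG, the core of the hypoxia response element. The windows came from RefSeq (GRCm38.p6) and ran from 250 bases before to 50 bases after each annotated start, 9 windows for the 8 genes. A p53 half-site, searched on both strands, lay in 2 of the 9 windows, 1 of Ddit4l and 1 of Sesn1, against 8.36% of all 32851 windows. The half-site of Ddit4l spans positions -90 to -81 from the start and that of Sesn1, in the second of its windows, positions -173 to -164. ACGTG was found in the window of Ddit4, as in 19.6% of all windows. GTAAACA, a FoxO motif, was found in 1 window, of Sesn1, against 3.65% of all, and TGATGNAA, an ATF4 motif, in 0 of the 9, against 3.97% of all. No window held more than 1 of the motifs, and a match describes the letters only. The 250 bases before each start are given 5′ to 3′ on the strand of the gene, for Ddit4l (chr3:137623422-137623671, plus strand), Ddit4 (chr10:59951771-59952020, minus strand) and Sesn1 (chr10:41887189-41887438, plus strand), with the half-site or ACGTG in capitals.
Ddit4l: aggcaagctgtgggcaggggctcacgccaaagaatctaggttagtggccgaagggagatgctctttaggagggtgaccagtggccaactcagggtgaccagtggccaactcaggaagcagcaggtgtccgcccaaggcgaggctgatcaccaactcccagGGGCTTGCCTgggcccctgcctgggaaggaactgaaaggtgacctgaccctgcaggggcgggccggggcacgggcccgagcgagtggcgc
Ddit4: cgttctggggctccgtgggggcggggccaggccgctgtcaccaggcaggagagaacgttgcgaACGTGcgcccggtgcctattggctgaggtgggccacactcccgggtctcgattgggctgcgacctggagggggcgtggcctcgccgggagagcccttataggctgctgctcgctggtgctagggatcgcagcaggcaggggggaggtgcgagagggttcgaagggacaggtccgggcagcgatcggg
Sesn1: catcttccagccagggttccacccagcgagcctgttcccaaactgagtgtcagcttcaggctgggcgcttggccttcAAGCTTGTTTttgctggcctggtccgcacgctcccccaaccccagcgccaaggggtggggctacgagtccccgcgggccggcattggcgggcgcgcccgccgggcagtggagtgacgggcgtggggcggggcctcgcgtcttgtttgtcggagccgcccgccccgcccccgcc

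Levels are given as log2 of a signal rescaled so that the 2% trimmed mean of every array was 82.7, with 4.13 added as an offset. Before rescaling, the trimmed means spanned a 3.12-fold range. In a principal component analysis, component 1 (13% of variance) set 3 arrays furthest apart. They were uninfected 0 h replicate 2 (score 123), p53ER vehicle replicate 1 (82.0) and p53ER 0 h replicate 3 (54.7). Uninfected 0 h replicate 3 came next at 20.1, and every other array was at -11.8 or lower. The first 3 are called below the 3 arrays that lay apart. Component 2 (11.3%) set the 6 arrays numbered 3 apart from those numbered 1 and 2. The meaning of the replicate numbers is not in the labels. The fit therefore has no term for them, and the adjusted p-values of Ddit4l depend on that choice. Cell type markers were each read by their brightest probe set and ranked among all probe sets. All 10 fibroblast markers measured were above the 75th percentile of signal, against 1 of 7 epithelial markers (Epcam), 0 of 5 blood markers, 1 of 5 muscle markers (Acta1) and 0 of 5 neural markers. Whether a replicate was its own culture is not in the labels. The p-values therefore reflect only how far these arrays scatter, possibly for technical reasons, and with 3 arrays in a group the precision is limited. In RNA from a whole culture, fewer cells with a transcript and less of it per cell cannot be told apart. A known p53 target was read as a check of the labels. Mdm2, the ubiquitin ligase that restrains p53, had values of 10.21, 10.09 and 11.26 in p53ER cells with 4-OHT against 6.77, 7.30 and 8.73 with vehicle. The difference was 2.92 ± 0.40 (SE, n = 3 per group, limma adjusted p = 0.0188).

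The question of the main comparison was what 4 h of 4-OHT did in p53ER cells beyond vehicle. Ddit4l stood highest of the 8 genes in size of difference: its 3 probe sets were 4.01 to 4.62 times as bright with 4-OHT as with vehicle, in all 3 arrays against all 3. Ddit4 was 1.91-fold brighter and the first Sesn2 probe set 1.63-fold brighter on average, with overlap between the groups. Tsc2 and both Prkab1 probe sets had slightly lower means with 4-OHT. After adjustment over all probe sets, limma called 0 of the 18 member probe sets, against 0.00888% of all probe sets (4 of 45037). At an unadjusted limma p under 0.05, 4 of the 18 were higher, against 2.71% of all, and 0 were lower, against 1.39% of all. The 4 were the 3 probe sets of Ddit4l and that of Ddit4, or 2 of the 8 genes by their brightest probe set. Without a trended and robust variance prior limma likewise called 0. With a term for the replicate number it called 1, Ddit4l 1439332_at, against 0.0244% of all.

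Ddit4l, the less studied relative of Ddit4, was read by 3 probe sets, 1439332_at, 1444139_at and 1451751_at. In the brightest of them, 1439332_at, p53ER cells with 4-OHT had values of 6.94, 7.07 and 9.58. The vehicle arrays of the same cells stood at 4.94, 5.80 and 6.22, and the 0 h arrays at 5.49, 5.52 and 6.25. The 3 arrays with 4-OHT were above every array of the other 5 groups, and replicate 3 was far above the other two. Uninfected cells had 4.39, 4.66 and 6.18 at 0 h, 4.71, 4.69 and 5.34 with vehicle, and 4.46, 5.08 and 5.23 with 4-OHT. Their 3 groups overlapped. The mean difference between 4-OHT and vehicle in p53ER cells was 2.21 ± 0.58 (SE, n = 3 per group), a 4.62-fold difference with a 95% interval of 0.99 to 3.43 in log2 units. Its unadjusted limma p was 0.00134 and its limma adjusted p 0.847. With a term for the replicate number, whose meaning is not in the labels, the limma adjusted p was 0.0299.

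The other Ddit4l probe sets gave the same picture. In 1444139_at the values with 4-OHT were 6.57, 6.57 and 9.10, against 5.34, 5.30 and 5.59 with vehicle, a difference of 2.0 ± 0.50 (SE, n = 3 per group, limma adjusted p = 0.73). In 1451751_at they were 6.26, 6.10 and 8.84, against 4.73, 4.85 and 5.48, a difference of 2.04 ± 0.61 (SE, n = 3 per group, limma adjusted p = 0.94). In both, the 3 arrays with 4-OHT were again above every array of the other groups. Over the 18 arrays, after the mean of each replicate number was subtracted, the 3 probe sets correlated with each other at r = 0.905 to 0.961. This is a description of arrays that share groups and scaling. Without replicate 3 of p53ER cells with 4-OHT the differences were 1.35 (1439332_at), 1.16 (1444139_at) and 1.16 (1451751_at), so that 1 array made up much of the size. Replicate 3 was the highest of its group in all 6 groups for 1439332_at, 1444139_at and Ddit4, and in 5 of 6 for 1451751_at. Of all probe sets, 2.18% had replicate 3 highest in all 6 groups. What the replicate number stands for was not tested. With replicate 3 of every group left out, a choice made after the data were seen, the differences were 1.64, 1.25 and 1.39 in the same order.

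The group means of 1439332_at fell in the order p53ER with 4-OHT (7.86 ± 1.49, SD, n = 3), p53ER at 0 h (5.75 ± 0.43), p53ER with vehicle (5.65 ± 0.65), uninfected at 0 h (5.08 ± 0.96), uninfected with 4-OHT (4.92 ± 0.41) and uninfected with vehicle (4.91 ± 0.37). The step from the first group to the second, 2.11, was larger than the SD of either. Each later pair of neighbours differed by less than the larger of their SDs.

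**Figure D1:**
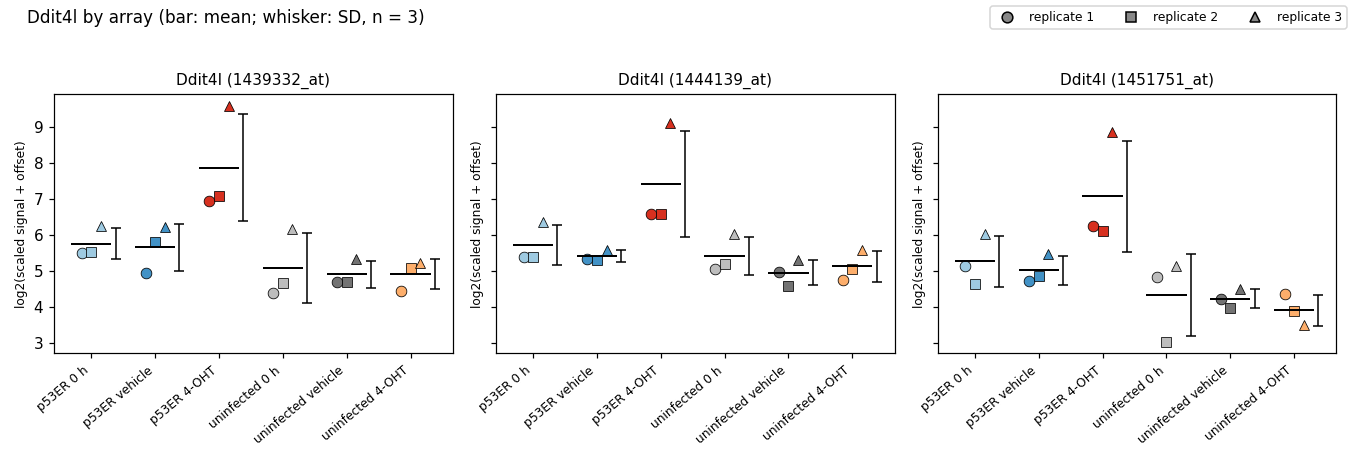
Level of Ddit4l in each array, as log2(scaled signal + offset), for its 3 probe sets in the 6 groups, with circles, squares and triangles for replicates 1, 2 and 3, a bar for the mean and a whisker for the SD (n = 3). The 3 red points, p53ER cells with 4-OHT, lie above all other points in each panel, and replicate 3 of that group is the highest, at 9.58, 9.10 and 8.84.

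Ddit4, a stress gene known to be induced by hypoxia, glucocorticoids and DNA damage, was read by 1428306_at alone. With 4-OHT p53ER cells had 8.72, 8.47 and 9.38, against 7.71, 7.33 and 8.73 with vehicle and 7.70, 7.41 and 8.44 at 0 h. The lowest array with 4-OHT was below the highest vehicle array, so those groups overlapped, but it was above all 0 h arrays. The difference from vehicle was 0.93 ± 0.42 (SE, n = 3 per group), 1.91-fold, with an unadjusted limma p of 0.0402 and a limma adjusted p of 1. Both replicate 3 arrays were the highest of their group. Between arrays of the same number the differences were 1.01, 1.14 and 0.65. With a term for the replicate number the unadjusted limma p was 0.000479 and the limma adjusted p 0.484. Without replicate 3 of the 4-OHT group the difference was 0.67, and without replicate 3 of every group it was 1.07. Uninfected cells had 7.21, 7.26 and 7.38 at 0 h, 7.13, 7.64 and 8.34 with vehicle, and 7.43, 7.54 and 8.91 with 4-OHT. Here the 4-OHT and vehicle groups overlapped, with a difference of 0.26 ± 0.42 (SE, n = 3 per group, limma adjusted p = 1) that turned negative without some single arrays. In order of group mean, Ddit4 stood at 8.86 ± 0.47 (SD, n = 3) in p53ER cells with 4-OHT, 7.96 ± 0.82 in uninfected cells with 4-OHT, 7.92 ± 0.72 and 7.85 ± 0.53 in p53ER cells with vehicle and at 0 h, and 7.70 ± 0.60 and 7.28 ± 0.08 in uninfected cells with vehicle and at 0 h. Only the first step, 0.90, was larger than the SD of both neighbours.

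The sestrins came next. Sesn2, the leucine sensor of the family, had values in 1425139_at of 6.39, 6.83 and 6.81 with 4-OHT against 5.85, 5.58 and 6.47 with vehicle in p53ER cells. One vehicle array was above the lowest array with 4-OHT. The difference was 0.71 ± 0.34 (SE, n = 3 per group, limma adjusted p = 1). Uninfected cells had 5.40, 6.21 and 5.97 with 4-OHT against 6.0, 4.46 and 5.48 with vehicle, which overlapped, with a difference of 0.55 ± 0.34 (SE, n = 3 per group, limma adjusted p = 1), or 0.12 without uninfected vehicle replicate 2. The second probe set of Sesn2, 1451599_at, read 5.86, 5.85 and 7.07 with 4-OHT against 5.53, 6.13 and 6.71 with vehicle in p53ER cells, a difference of 0.14 ± 0.44 (SE, n = 3 per group, limma adjusted p = 1). Its sign turned when single arrays were left out, so the probe sets of Sesn2 gave differences of unlike size.

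Sesn1, the sestrin first described as a p53 target (PA26), was read by 4 probe sets. The brightest, 1433711_s_at, had values of 5.70, 5.83 and 6.86 with 4-OHT against 5.67, 5.29 and 5.71 with vehicle. Replicate 3 with 4-OHT was far above the rest, and replicate 1 lay within the range of the vehicle arrays. The difference was 0.57 ± 0.30 (SE, n = 3 per group, limma adjusted p = 1), and 0.21 without that array. The 0 h arrays of the same cells, at 5.98, 6.07 and 6.24, were above all 3 vehicle arrays and overlapped those with 4-OHT. The dimmer Sesn1 probe sets 1438931_s_at, 1454699_at and 1444376_at gave differences between 4-OHT and vehicle of 0.38 ± 0.51, 0.35 ± 0.56 and -0.07 ± 0.43 (SE, n = 3 per group), all with overlap and each turning sign without some array. Probe sets of Sesn1, treated in the same way, correlated with each other at r = 0.0342 to 0.656 over the 18 arrays, lower than those of Ddit4l.

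Sesn3, the sestrin best known as a FoxO target, had 7.24, 7.14 and 7.66 with 4-OHT against 7.11, 7.46 and 7.86 with vehicle in 1453313_at. The groups overlapped, with a difference of -0.13 ± 0.27 (SE, n = 3 per group, limma adjusted p = 1) that turned positive without p53ER vehicle replicate 3. The second probe set, 1449303_at, read 6.57, 6.57 and 6.92 against 6.0, 6.36 and 6.67, a difference of 0.35 ± 0.29 (SE, n = 3 per group, limma adjusted p = 1). The probe sets of Sesn3 therefore differed in sign.

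**Figure D2:**
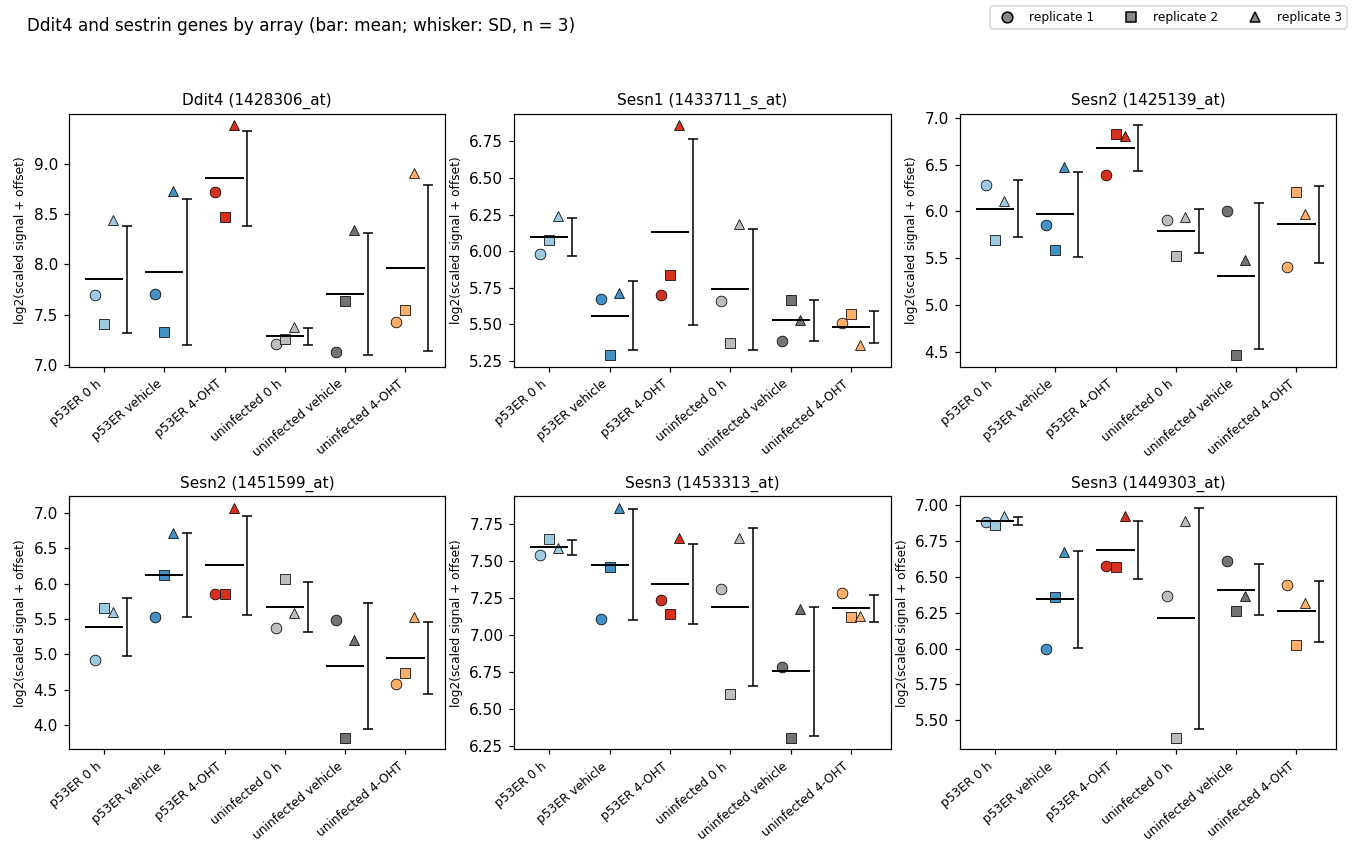
Level in each array, as log2(scaled signal + offset), of Ddit4, the brightest probe set of Sesn1 and both probe sets of Sesn2 and Sesn3, with symbols for replicates 1 to 3, a bar for the mean and a whisker for the SD (n = 3); each panel has its own axis. Ddit4 and Sesn2 1425139_at have their highest group mean in p53ER cells with 4-OHT (8.86 and 6.68), with overlap against p53ER cells with vehicle, and replicate 3 is highest in each group for Ddit4.

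The Tsc complex and the AMPK subunit showed small differences. Tsc1, the scaffold of the complex, had 6.58, 6.43 and 6.75 with 4-OHT in 1455252_at against 6.37, 6.37 and 6.38 with vehicle in p53ER cells. All 3 arrays with 4-OHT were higher, but the difference, 0.21 ± 0.21 (SE, n = 3 per group, limma adjusted p = 1), was about the size of its standard error. The dimmer probe sets 1422043_at and 1439989_at gave 0.59 ± 0.45 and 0.21 ± 0.49 (SE, n = 3 per group) with overlap, and the latter turned sign without single arrays. In uninfected cells 1439989_at read 2.60, 3.74 and 3.06 with 4-OHT against 4.33, 4.29 and 3.81 with vehicle. All 3 arrays with 4-OHT were lower, by -1.01 ± 0.49 (SE, n = 3 per group, limma adjusted p = 1), at a level under the 60% brightest probe sets.

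Tsc2, the subunit that acts on Rheb, was read by 1452105_a_at, with 8.20, 7.93 and 8.12 with 4-OHT against 8.18, 7.97 and 8.39 with vehicle in p53ER cells. The groups overlapped and the 95% interval of the difference, -0.10 ± 0.18 (SE, n = 3 per group), was -0.48 to 0.28. Prkab1 had 7.80, 7.96 and 7.70 with 4-OHT in 1424119_at against 8.23, 8.03 and 7.99 with vehicle. All 3 arrays with 4-OHT were lower, by -0.26 ± 0.20 (SE, n = 3 per group, limma adjusted p = 1), with a 95% interval of -0.68 to 0.16. In 1452457_a_at the groups overlapped, with a difference of -0.27 ± 0.25 (SE, n = 3 per group). The intervals of both genes lay below a doubling in either direction.

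**Figure D3:**
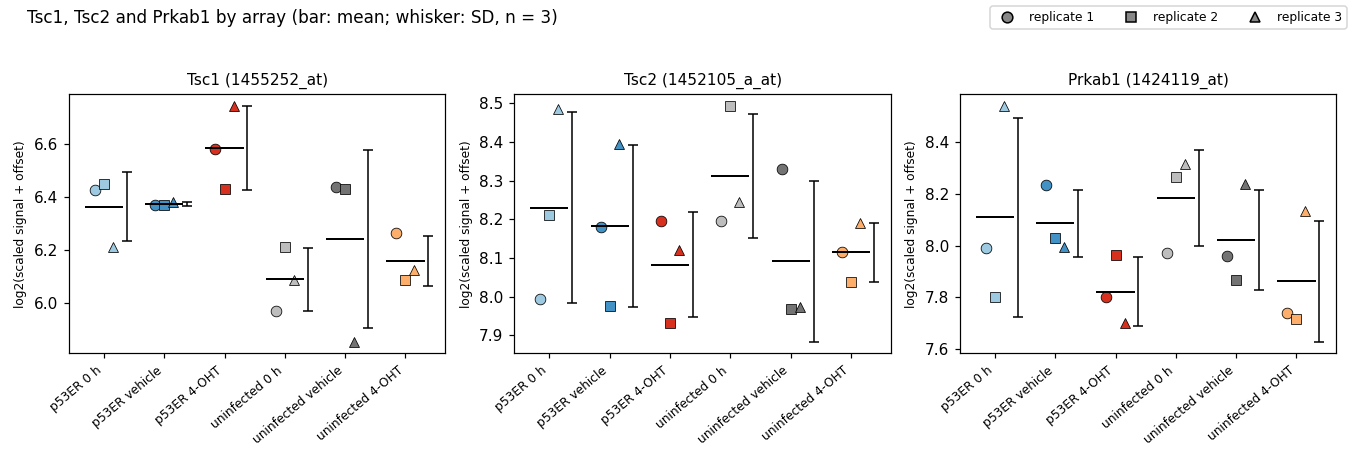
Level in each array, as log2(scaled signal + offset), of the brightest probe set of Tsc1, Tsc2 and Prkab1, with symbols for replicates 1 to 3, a bar for the mean and a whisker for the SD (n = 3); each panel has its own narrow axis. The 3 arrays of p53ER cells with 4-OHT are above those with vehicle for Tsc1 (means 6.59 and 6.37), below them for Prkab1 (7.82 and 8.09) and among them for Tsc2 (8.08 and 8.18).

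Across the 18 probe sets, 13 had a positive difference in p53ER cells, against 53.5% of all probe sets, and their median was 0.35 against 0.03 over all. All 3 arrays with 4-OHT were higher in 4 probe sets (the 3 of Ddit4l and Tsc1 1455252_at), against 5.02% of all, and lower in 1 (Prkab1 1424119_at), against 3.4% of all. An exact permutation test of 3 arrays against 3 cannot give a two-sided p below 0.1. In uninfected cells 4-OHT was compared with vehicle to show what the drug did without the fusion. There limma called 0 of the 18 and 0% of all probe sets. At an unadjusted limma p under 0.05, 0 were higher, against 1.22% of all, and 0 lower, against 0.944% of all. The variance prior without trend and robustness gave 0 as well. The differences of Ddit4l in uninfected cells were 0.00923 ± 0.58 (1439332_at, -0.0218 with quantile normalization), 0.18 ± 0.50 (1444139_at) and -0.31 ± 0.61 (1451751_at; SE, n = 3 per group), and the arrays overlapped in each. Of the 18, 9 were positive, against 51.4% of all. All arrays were higher in 0, against 3.83% of all, and lower in 1, Tsc1 1439989_at, against 3.07% of all.

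The difference between these effects, p53ER minus uninfected, was tested as an interaction. For Ddit4l it was 2.20 ± 0.82 (1439332_at), 1.83 ± 0.70 (1444139_at) and 2.36 ± 0.86 (1451751_at; SE, 3 arrays in each of 4 groups), with unadjusted limma p of 0.0156, 0.0173 and 0.0123 and limma adjusted p of 1 each. Without p53ER 4-OHT replicate 3 they were 1.34, 0.98 and 1.47. These were the 3 of the 18 probe sets with an unadjusted limma p under 0.05 and a positive sign, against 1.66% of all, and 0 had a negative one, against 1.1% of all. Of the 18, 13 were positive, against 52% of all. After adjustment limma called 0 of the 18, against 0.00222% of all, and 0 without trend and robustness. Ddit4 gave 0.68 ± 0.59 with a 95% interval of -0.58 to 1.93, Sesn1 1433711_s_at 0.62 ± 0.42 (-0.25 to 1.49) and Sesn2 1425139_at 0.16 ± 0.49 (-0.85 to 1.17). Those intervals include 0 and differences of over a doubling. Neither a like nor an unlike response of these genes in p53ER and uninfected cells was therefore shown. Tsc1 1439989_at gave 1.22 ± 0.69 (SE, limma adjusted p = 1).

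**Figure D4:**
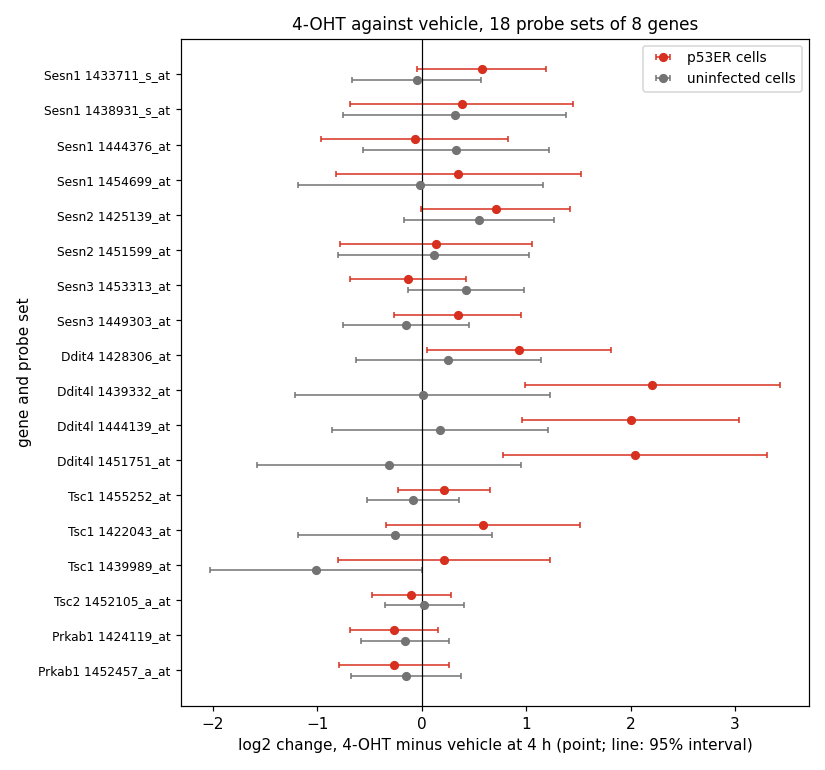
Log2 difference between 4-OHT and vehicle at 4 h for the 18 probe sets, in p53ER cells (red) and uninfected cells (grey), with 95% intervals from limma. The intervals of the 3 Ddit4l probe sets and of Ddit4 in p53ER cells exclude 0 before adjustment, with lower bounds of 0.99, 0.96, 0.78 and 0.05, and no interval in uninfected cells lies wholly above 0.

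Set against uninfected cells with the same drug, p53ER cells had higher Ddit4l, Sesn2 and Sesn1 (1433711_s_at) in every array. This comparison includes what the cells differed by without 4-OHT, given below, and uses the same p53ER arrays with 4-OHT as the one with vehicle. For Ddit4l the differences were 2.94 ± 0.58 in 1439332_at, 2.28 ± 0.50 in 1444139_at and 3.15 ± 0.61 in 1451751_at (SE, n = 3 per group), 4.86-fold to 8.87-fold, with limma adjusted p of 0.19, 0.301 and 0.122. Without p53ER 4-OHT replicate 3 they were 2.08, 1.44 and 2.26. Arrays numbered 1 and 2, each against the same number in uninfected cells, differed by 2.48 and 1.98 (1439332_at), 1.82 and 1.52 (1444139_at), and 1.90 and 2.20 (1451751_at). Sesn2 differed by 0.82 ± 0.34 in 1425139_at and by 1.31 ± 0.44 in 1451599_at, Sesn1 1433711_s_at by 0.65 ± 0.30 and Ddit4 by 0.90 ± 0.42 (SE, n = 3 per group, limma adjusted p = 1 each). The Sesn1 difference was 0.29 without p53ER 4-OHT replicate 3. All arrays were lower in 0 of the 18 probe sets, against 4.14% of all, and higher in 8, against 6.02% of all, namely the 3 of Ddit4l, both of Sesn2, Sesn1 1433711_s_at, Sesn3 1449303_at and Tsc1 1455252_at. Positive differences were found in 14 of the 18, against 54.6% of all. At an unadjusted limma p under 0.05, 7 were higher, against 2.59% of all, and 0 were lower, against 1.19%. By the brightest probe set of each gene, 4 of the 8 genes were higher at that level. After adjustment limma called 0 of the 18, against 0.0178% of all, and 0 without trend and robustness. With a term for the replicate number it called all 3 of Ddit4l, against 0.0533% of all. The lowest limma adjusted p was then 0.000868, for 1439332_at. In the fit without that term, the 3 arrays that lay apart were also left out, a choice made after the data were seen. It then called 1, Ddit4l 1451751_at (limma adjusted p = 0.043), and 19 of all 45037 probe sets.

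With vehicle, Sesn2 1451599_at read 5.53, 6.13 and 6.71 in p53ER cells against 5.48, 3.82 and 5.20 in uninfected cells, all 3 higher. The difference was 1.29 ± 0.44 (SE, n = 3 per group, limma adjusted p = 1), or 0.78 without uninfected vehicle replicate 2. At 0 h the same probe set differed by -0.28 ± 0.44 (SE, n = 3 per group), with overlap. Sesn3 1453313_at differed by 0.72 ± 0.27 with vehicle (SE, n = 3 per group, limma adjusted p = 1) with overlap, and 1449303_at by 0.68 ± 0.29 at 0 h (limma adjusted p = 0.999), or 0.26 without uninfected 0 h replicate 2, but by -0.07 ± 0.29 with vehicle. With vehicle, 2 of the 18 were higher at an unadjusted limma p under 0.05, against 1.92% of all, and at 0 h 1 was, against 1.61% of all. All arrays were higher with vehicle in 3 of the 18 (4.46% of all), Sesn2 1451599_at and Ddit4l 1444139_at and 1451751_at. At 0 h this held in 2 (2.76% of all), Ddit4 and Tsc1 1455252_at. The nearest arrays of the 2 groups both read 5.30 for Ddit4l 1444139_at and both 6.21 for Tsc1, so those gaps were minute. Group means of Ddit4l with vehicle were 5.65 in p53ER against 4.91 in uninfected cells (1439332_at), 5.41 against 4.96 (1444139_at) and 5.02 against 4.23 (1451751_at). At 0 h they were 5.75 against 5.08, 5.72 against 5.43 and 5.28 against 4.33. In each of these comparisons limma called 0 of the 18 and 0% of all after adjustment, and 0 of the 18 without trend and robustness.

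Against untreated p53ER cells at 0 h the 4-OHT arrays, which are those of the main comparison, were higher for Ddit4l by 2.11 ± 0.58, 1.69 ± 0.50 and 1.79 ± 0.61 in 1439332_at, 1444139_at and 1451751_at (SE, n = 3 per group, limma adjusted p = 0.865, 0.876 and 1). Without p53ER 4-OHT replicate 3 these differences were 1.25, 0.85 and 0.90, and that of Sesn2 1451599_at was 0.46. Replicate 3 at 0 h, the highest of its group for Ddit4l, was kept there. Arrays numbered 1 and 2, each against the same number at 0 h, differed by 1.45 and 1.55 (1439332_at), 1.18 and 1.17 (1444139_at), and 1.10 and 1.46 (1451751_at). Ddit4 was higher by 1.00 ± 0.42 and Sesn2 by 0.65 ± 0.34 (1425139_at) and 0.87 ± 0.44 (1451599_at; SE, n = 3 per group, limma adjusted p = 1 each). Those 6 probe sets had all arrays higher, against 4.54% of all, and Sesn1 1444376_at all lower, against 5.08% of all. At an unadjusted limma p under 0.05, 4 of the 18 were higher, against 2.14% of all, and 0 lower, against 2.02%. By the brightest probe set of each gene, 2 of the 8 genes were higher at that level. Positive differences were found in 10 of the 18, against 48.7% of all. limma called 0 of the 18, against 0.0155% of all, and 0 without trend and robustness. With a term for the replicate number it called 1, Ddit4l 1439332_at (limma adjusted p = 0.0329), against 0.0533% of all. Ddit4 in uninfected cells was also above its 0 h level, by 0.68 ± 0.42 with 4-OHT, in all 3 arrays, and by 0.42 ± 0.42 with vehicle, with overlap (SE, n = 3 per group, limma adjusted p = 0.835 and 0.854). Replicate 3 carried most of both: without uninfected 4-OHT replicate 3 the first was 0.20, and without uninfected vehicle replicate 3 the second was 0.10. The 4 h groups other than p53ER with 4-OHT were also read against 0 h. All arrays were lower in 2 probe sets for p53ER vehicle (4.95% of all), 2 for uninfected vehicle (9.08%) and 1 for uninfected 4-OHT (8.26%). All arrays were higher in 0 (2.9% of all), 0 (3.27%) and 1 (3.57%), the last being Ddit4. In these 3 comparisons limma called 0 of the 18, with or without trend and robustness, against 0%, 0.00222% and 0% of all, and 0 of the 18 had an unadjusted limma p under 0.05, against 3.84%, 6.68% and 6.08% of all.

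Other genes of the pathway, each read by its brightest probe set, served as a frame for the main comparison, in which 51.3% of all 18193 genes had a positive difference and their median was 0.01. None of the 9 pathway lists had a gene past the limma threshold. Of 8 genes of the Tsc and mTORC1 core, 2 were positive, with a median of -0.11, from Akt1s1 (PRAS40, an mTORC1 inhibitor, -0.35 ± 0.22) to the Rheb relative Rhebl1 (0.10 ± 0.31). Of 24 genes of the amino acid branch 9 were positive, with a median of -0.08, from the KICSTOR subunit Kptn (-0.84 ± 0.46) to the folliculin partner Fnip1 (0.72 ± 0.68). The list of AMPK and its kinases had 6 of 10 positive and a median of 0.15, from the catalytic subunit Prkaa2 (-0.49 ± 0.49) to its paralog Prkaa1 (0.85 ± 0.40; SE, n = 3 per group throughout). The growth factor branch had 5 of 13 positive and a median of -0.04, from the insulin receptor Insr (-0.22 ± 0.34) to the PI3-kinase subunit Pik3ca (0.80 ± 0.51). mTORC1 substrates and outputs had 6 of 12 positive and a median of -0.03, from the cap-binding protein Eif4e (-0.42 ± 0.17) to Lpin1 (0.46 ± 0.30).

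Lists of other inputs that can raise Ddit4 or the sestrins were read in the same way. Targets of ATF4, the factor of the integrated stress response, had 7 of 19 positive and a median of -0.08, from Shmt2 (-0.24 ± 0.19) to Atf3 (0.53 ± 0.48). Hypoxia targets had 9 of 12 positive and a median of 0.08, from the mitophagy receptor Bnip3 (-0.23 ± 0.50) to Ankrd37 (0.97 ± 0.58). Glucocorticoid targets had 3 of 8 positive and a median of -0.05, from Cebpd (-0.54 ± 0.62) to the clock gene Per1 (0.65 ± 0.25). FoxO factors and targets had 5 of 11 positive and a median of -0.08, from Bcl6 (-0.23 ± 0.35) to the ubiquitin ligase gene Trim63 (0.56 ± 0.37). The 12 p53 reference targets had 10 positive and a median of 1.64, and 2 were called, Mdm2 and the BH3-only gene Pmaip1 (3.38 ± 0.50, limma adjusted p = 0.023). The cell cycle inhibitor Cdkn1a differed by 2.19 ± 0.49 (SE, n = 3 per group, limma adjusted p = 0.719). The brightest probe sets of the 8 genes described had 5 positive and a median of 0.39. A few genes of these lists are not analysed here.

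**Figure D5:**
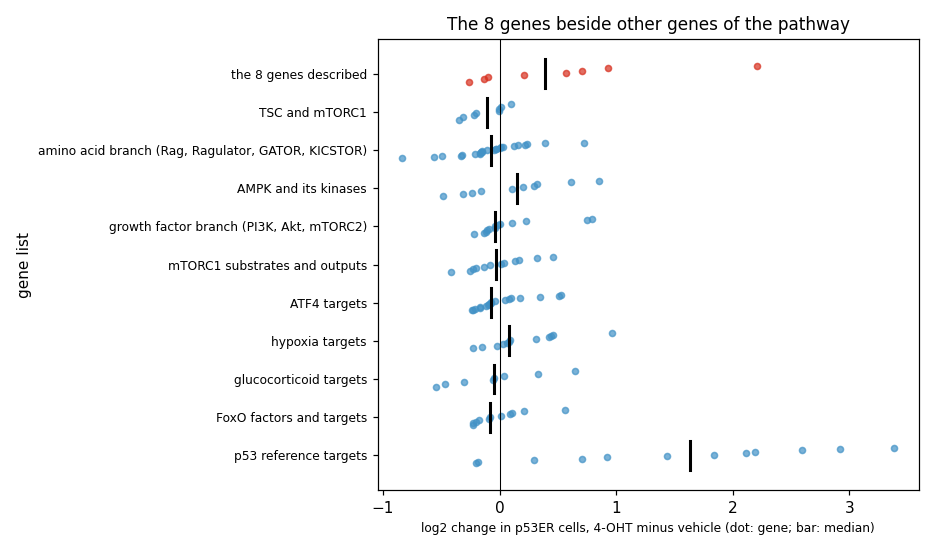
Log2 difference between 4-OHT and vehicle in p53ER cells for each gene (dot, brightest probe set) of the 8 genes described (red) and of 10 lists of related genes (blue), with a bar for the list's median. The 8 genes spread from -0.26 (Prkab1) to 2.21 (Ddit4l) around a median of 0.39, the p53 reference targets lie around 1.64, and the medians of the other 9 lists lie between -0.11 and 0.15.

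The genes whose pattern was most like that of each member were found by Pearson's r over the 18 arrays, after the mean of each replicate number was subtracted, among 19838 probe sets in the upper 50% of signal. The arrays share groups and scaling, so these values only describe. For Ddit4l 1439332_at they were Ckap2 (r = 0.929), the p53 target Ccng1 (0.923) and Tmem19 (0.917). For Ddit4 they were Trim11 (0.888), Cdkn1a (0.887) and Btbd11 (0.876), so that a p53 target was among the 3 for both genes. For Sesn1 they were Atp8b3 (0.858), Zcchc24 (0.849) and Pskh1 (0.840), and for Sesn2 St3gal3 (0.854), Clk2 (0.828) and Zkscan3 (0.808). Sesn3 was most like Srgap3 (0.855), Kif13b (0.849) and Zmiz1 (0.843). Tsc1 was most like Fzd5 (0.862), Tsc2 like Ano6 (0.851) and Prkab1 like Ppp1r11 (0.907). No p53 reference target was among the 3 for the sestrins, Tsc1, Tsc2 or Prkab1.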

How the data were processed

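RNA from 18 samples was hybridised to Affymetrix arrays. MAS5 produced the deposited intensity of each probe set (linear, not logged), per the submitters' processing notes. Its version and settings are not given in the sources used here. The arrays were rescaled here to 1 shared 2% trimmed mean (82.7), 5% of it (4.13) was added, and log2 was taken. The 64 control probe sets were left out and 45037 tested, without a filter on low values (16 of the 18 probe sets described are in the upper 60% by mean). Of these, 34945 had 1 annotated gene, 932 several and 9160 none. limma 3.58.1 in R 4.3.3 fitted 6 group means over 18 arrays (12 residual degrees of freedom, trended and robust prior) for 10 comparisons, with two-sided p-values adjusted by Benjamini-Hochberg over all probe sets and a threshold of 0.05. Fold changes are on the scale with the offset and understate dim genes.

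The members, lists, motifs and tests were chosen with earlier results of these data known. Every member probe set is described. From each list the genes past the threshold are named (up to 4), otherwise those with the largest positive and negative difference, and for each member the most similar genes (3 were found). Alternatives were quantile normalization, no offset, a 20% offset (16.5), the upper 60% of probe sets, 1 probe set per gene, a replicate block (which leaves 10 residual degrees of freedom), a fit of the compared groups alone, no trend and robustness, and leaving out each array. The method was tested on simulated data with independent noise. They held no shift shared by arrays of a replicate number and no outlying arrays, so that test does not cover these. Figures were drawn with matplotlib 3.10.9.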

Additional observations from a re-analysis of the deposited data

How the results depend on the processing

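In 169 of 176 recomputed counts of member probe sets past the threshold the count was as reported, 0. The 7 that moved all lay in comparisons of p53ER cells with 4-OHT against another group. Of 932 recomputed single differences 892 kept their direction and their side of the threshold. In the main comparison the deviations of same-numbered arrays correlated at r = 0.0866, 0.0944 and 0.195 over all probe sets (0.146, 0.190 and 0.310 over the upper 60%), and for 15 of 18 arrays the best match had the same number, a hint from the data that arrays of a number share something. As 2 of the 3 correlations over all probe sets were below 0.1 and the labels give the number no meaning, no pairing was assumed. In the upper 60% all 3 were above 0.1, and component 2 set the arrays numbered 3 apart. A fit without the term leaves such a shared shift in the spread. With the replicate block limma called 1 member probe set in p53ER cells with 4-OHT against vehicle, Ddit4l 1439332_at (limma adjusted p = 0.0299). There 0.0244% of all were called. In p53ER against uninfected cells with 4-OHT it called all 3 of Ddit4l (lowest limma adjusted p = 0.000868, for 1439332_at), against 0.0533% of all. In p53ER cells with 4-OHT against 0 h it called 1, Ddit4l 1439332_at (limma adjusted p = 0.0329), again against 0.0533% of all. The counts with the block in the upper 60% of probe sets, chosen after the data were seen, were also 1, 3 and 1. There 12, 23 and 25 of all 27023 probe sets were called. No other member probe set changed its call with the block, while the p53 reference targets called in the main comparison went from 2 to 4. The adjusted p of Ddit4l 1439332_at in the main comparison ran from 0.0299 to 1 over the alternatives. Without the 3 arrays that lay apart, 1 was called in p53ER against uninfected cells with 4-OHT, and 19 of all 45037 probe sets. Leaving out each array in turn left every count at 0. Over all probe sets limma called 4 in the main comparison (11 with the block, 0 to 12 over all alternatives), 8 in p53ER against uninfected cells with 4-OHT (24 with the block, 5 to 24 over all) and 7 in p53ER cells with 4-OHT against 0 h (24 with the block, 1 to 25 over all). For the difference of the 4-OHT effect it called 1 (3 with the block, 0 to 3 over all).

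Some small differences changed sign. In p53ER cells, 4-OHT against vehicle, this held without replicate 3 of every group for Sesn1 1438931_s_at (-0.41) and 1454699_at (-0.46), and without the 3 arrays that lay apart for Sesn2 1451599_at (-0.16) and Tsc1 1439989_at (-0.16). In uninfected cells Ddit4l 1439332_at was -0.0218 with quantile normalization and 1451751_at was 0.0291 without replicate 3 of every group. Sesn3 1449303_at in p53ER against uninfected cells with vehicle was 0.10 without the 3 arrays. Leaving out single arrays gave ranges across 0 in the main comparison for Sesn1 1438931_s_at (-0.0486 to 0.93), 1444376_at (-0.43 to 0.42) and 1454699_at (-0.15 to 1.05), Sesn2 1451599_at (-0.27 to 0.43), Sesn3 1453313_at (-0.31 to 0.0616), Tsc1 1439989_at (-0.16 to 0.77) and Tsc2 (-0.20 to 0.00577). In uninfected cells the ranges were -0.22 to 0.57 for Ddit4, -0.14 to 0.24 for Ddit4l 1439332_at and -0.0544 to 0.36 for 1444139_at. The range was -0.18 to 0.59 for the difference of the 4-OHT effect of Sesn2 1425139_at. For Sesn3 1449303_at in p53ER against uninfected cells with vehicle it was -0.23 to 0.10. The cause was not tested. The signal limits what the dimmest probe sets, Sesn1 1454699_at and Tsc1 1439989_at, can show.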
